A study of Chlamydomonas reinhardtii with 8 samples.

Results

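The subject is the difference between strains labelled dnmt1 and wild type (WT) of the green alga Chlamydomonas reinhardtii, in the part that was common to both mating types. The comparison used all 8 libraries of the series, 4 labelled dnmt1 and 4 WT. The groups were dnmt1 mt+, WT mt+, dnmt1 mt- and WT mt-, with 2 biological replicates each. The genotype label of the dnmt1 groups is DNMT1 knockout. The strain background was CC-5155 for mt+ and CC-5325 for mt-, and an effect of background cannot be told apart from one of mating type. All cells were vegetative, in a medium that holds acetate (TAP), under continuous light. How each dnmt1 line was made, and whether it is 1 clone, is not given in the sources used here, so a line and its genotype cannot be told apart within a mating type.

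DNA cytosine methyltransferases add a methyl group to cytosines in DNA, and enzymes of the DNMT1 type are known for copying existing marks to the new strand after replication. Cytosine methylation at genes and repeats is best known in plants and animals as a mark of silenced DNA. In Chlamydomonas, a haploid single-celled alga, the mating type is set by a region of chromosome 6, and methylation has long been studied there for its part in the life cycle and in chloroplast inheritance.

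Library totals ran from 12204374 to 21115955 counts. Of 17693 genes in the count table, 15263 had enough counts to be tested, and 572 had no read in any library. Levels are in CPM, counts relative to the library's TMM-scaled total. Across genes, replicates correlated at 0.980 in WT mt+ and at 0.989 to 0.991 elsewhere (Pearson, log2 CPM). The SD of the log2 difference between replicates was 0.47 in WT mt+ and 0.32 to 0.34 in the other groups. The photosynthesis genes that mark light-grown cells were among the highest, such as LHCA1 (Cre06.g283050) at 3218 to 4362 CPM. Transporter genes known to be switched on without ammonium, NRT2.1, NRT2.2 and AMT4, had too few counts to be tested. The library kit named in the labels does not mark strand, so overlapping and antisense genes cannot be told apart.

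The DMT1 locus (Cre10.g461750), taken as the gene for DNMT1, went against the knockout label in one mating type. It stood at 16.0 and 13.2 CPM in dnmt1 mt+, against 28.2 and 28.3 CPM in WT mt+. In mt- it stood at 84.0 and 91.0 CPM in dnmt1 mt-, against 28.7 and 24.5 CPM in WT mt-. Over both mating types it was not called (log2 fold change 0.46 ± 0.43, SE; edgeR, Benjamini-Hochberg adjusted p = 0.539). The lesion is not named in the labels, and total reads of a gene say nothing on whether it yields a product. In what follows dnmt1 in the name of a group is therefore the label alone, and every direction rests on the labels.

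Calls rest on edgeR's quasi-likelihood test, with p-values adjusted by Benjamini-Hochberg over all genes and a threshold of 0.05. A log2 fold change is dnmt1 over WT, given ± SE. The fit over all 8 libraries with mating type as a term called 890 genes higher in the libraries labelled dnmt1 and 993 lower, which is 5.83% and 6.51% of the genes tested. An unadjusted p under 0.05 was reached by 4209 genes. Of the 1883 genes called, 140 rose and 74 fell by at least 2-fold, and 1882 had the same sign in both mating types. This fit counts a difference between the mating types as spread, so genes of opposite change are hard to call in it. The 1882 is therefore no separate support for a shared effect.

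A stricter view asked for a call in mt+ and a call in mt- in the same direction. Genes higher in both mating types numbered 395, or 2.59% of those tested, and genes lower in both numbered 447, or 2.93%. All 842 of them were also called in the fit over 8 libraries. In the fit with 1 mean per group, 2763 genes were called within mt+, 18.1% of those tested, and 3594 within mt-, or 23.5%. The 395 higher genes made up 27.9% of the genes higher in mt+ and 21.7% of those higher in mt-. The 447 lower genes made up 33.2% and 25.2% of the genes lower in mt+ and in mt-. A further 389 genes were called in each mating type with opposite signs. None of them was called over the 8 libraries by edgeR or by DESeq2, and 1 had an unadjusted p under 0.05 in edgeR. That follows largely from those fits, in which opposite changes count as spread. Over all genes tested, the log2 fold changes in mt+ and in mt- had a Pearson's r of 0.34 and a Spearman's rho of 0.18, given as a description across genes that share libraries.

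**Figure D1:**
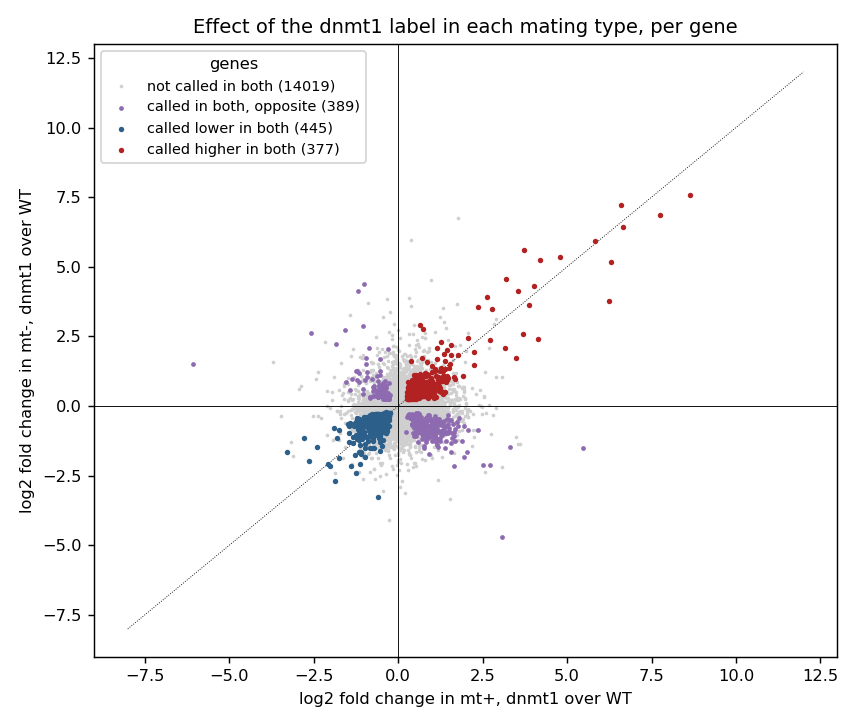
Each point is a gene, with its log2 fold change (dnmt1 over WT) in mt+ on the horizontal axis and in mt- on the vertical axis, and colour gives the calls. Drawn are 15230 genes, since 33 genes with 0 reads in both libraries of a group have no finite fold change; the 377 red and 445 blue genes lie in the quadrants of equal sign, and a tail of red points reaches past 5 on both axes.

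The genes that moved alike mostly moved by little. Of the 395 higher genes, 163 changed by under 1.5-fold and 87 by at least 2-fold, with a median log2 fold change of 0.66. That median was the same with the 6 genes at 0 reads in all WT libraries set to their lower bound. Of the 447 lower genes, 231 changed by under 1.5-fold and 53 by at least 2-fold, with a median of -0.57. The median over all genes tested was 0.01.

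At least 4-fold changes were found in 42 genes higher in both and in 7 genes lower in both. The median level of the higher genes was 39.4 CPM in dnmt1 and 25.5 CPM in WT. That of the lower genes was 29.0 CPM in dnmt1 and 43.6 CPM in WT, and the median WT level of all genes tested was 13.3 CPM.

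These counts moved with single libraries. Without WT mt+ replicate 1 the genes higher and lower in both were 796 and 869, and without WT mt+ replicate 2 they were 584 and 726. Without any 1 of the other libraries they were 210 to 250 and 199 to 236. Scaling by library size alone, in place of TMM, made 293 higher and 591 lower in both, a share of higher calls of 33.1% against 46.9%. For the fit over 8 libraries that share was 35.4% against 47.3%.

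At the top of the list were genes with hardly a read in WT. In 13 genes each WT library had at most 3 counts and each dnmt1 library at least 10. No gene showed the reverse. All 13 were tested and higher in both mating types, which follows largely from the read limits that picked them. Their mean level in dnmt1 ran from 1.06 to 18.4 CPM, and 10 of the 13 have IDs whose number begins with 8, a series described below.

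Cre06.g278278 had the most reads of the 13. It had 276 and 239 counts in dnmt1 mt+, against 0 and 0 in WT mt+, and 352 and 272 in dnmt1 mt-, against 0 and 0 in WT mt-. All 4 dnmt1 libraries thus read the gene and none of the WT libraries did. Against a floor of 3 counts per library, the gene was at least 95.7-fold higher over both mating types, at least 75.4-fold in mt+ and at least 122-fold in mt-. The floor was worth 0.133 to 0.255 CPM. These bounds cover at most counting error and take each count as a separate fragment, although the fragments may be fewer than the counts.

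Another 5 genes had no read in any WT library. Cre17.g802127 had 71 to 111 counts in the dnmt1 mt+ libraries, 68 and 77 counts in those of dnmt1 mt-, and was at least 27.3-fold higher. Cre12.g801336 was at least 11.8-fold higher, Cre22.g802170 at least 10.3-fold, Cre01.g800017 at least 8.78-fold and Cre17.g802130 at least 7.16-fold. Their order among themselves is not known, since each value is a bound.

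The other 7 had a few WT reads. Cre17.g802133 had 157 and 135 counts in dnmt1 mt+, against 0 and 1 in WT mt+, and 171 and 138 in dnmt1 mt-, against 2 and 1 in WT mt-. Its level was 160 times that in WT, with a 95% exact binomial interval of 62.2 to 589. Cre03.g198500 had a ratio of 137 (53.2 to 504), Cre07.g800762 of 63.0 (28.7 to 173) and Cre14.g628533 of 28.4 (12.8 to 78.6). For Cre13.g801573, Cre09.g801050 and Cre07.g800761 the ratios were 37.8, 35.2 and 17.6. These intervals cover at most counting error, with each count taken as a separate fragment. The fragments may be fewer than the counts, so the intervals can be too narrow. Outside the limit on WT reads, with many dnmt1 reads, were Cre06.g800688, Cre09.g801044 and Cre05.g800547, with at most 8, 10 and 6 counts in a WT library. Nearer to that limit were Cre16.g802004 and Cre10.g445275, each with at most 4. Just outside the limit on dnmt1 reads was Cre11.g801306, with 9 in its lowest library.

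Genes named next had a mean of at least 5 CPM and no overlap between dnmt1 and WT libraries within each mating type. There were 787 such genes among those called alike, 356 higher and 431 lower, and the 10 with the highest and the 10 with the lowest fitted change are given. The limit on overlap removed no gene, since all 395 higher and all 447 lower genes met it. With 2 libraries per group it adds little to a call. None of the 20 has a symbol in the sources used here, so no role is given. Cre06.g278278, above, was among the 10 higher ones, and its place in their order is not known.

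Cre05.g800549 had the highest level of them. It stood at 117 and 117 CPM in dnmt1 mt+, against 0.510 and 1.59 CPM in WT mt+. In mt- the values were 166 and 169.6 CPM in dnmt1 mt-, against 2.08 and 1.69 CPM in WT mt-, and the log2 fold change was 6.54 ± 0.17 (edgeR, Benjamini-Hochberg adjusted p = 4.02e-09). Every dnmt1 library was thus far above every WT library. A near neighbour by ID, Cre05.g800547, had 288 and 259 counts in dnmt1 mt+, against 0 and 0 in WT mt+, and 558 and 545 in dnmt1 mt-, against 4 and 6 in WT mt-.

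Cre06.g800688 had 925 counts or more in each dnmt1 library. It stood at 56.1 and 62.1 CPM in dnmt1 mt+, against 0.170 and 0.118 CPM in WT mt+. The mt- libraries had 60.3 and 66.9 CPM in dnmt1 mt-, against 0.177 and 0.539 CPM in WT mt-, and the log2 fold change was 7.95 ± 0.22. Its WT libraries held 2 to 8 counts each, so the size of the change is uncertain. It closes a run of 3 IDs, Cre06.g800686 to Cre06.g800688, that were all higher in both mating types.

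Cre09.g801044 stood at 24.9 and 25.7 CPM in dnmt1 mt+, against 0.510 and 0.177 CPM in WT mt+, and at 18.2 and 18.9 CPM in dnmt1 mt-, against 0.444 and 0.607 CPM in WT mt- (log2 fold change 5.63 ± 0.24). The rest of the higher genes started from WT levels between 0.270 and 2.89 CPM. They were Cre03.g800374 (4.74 ± 0.24), Cre09.g397401 (4.62 ± 0.30), Cre16.g802003 (3.87 ± 0.23), Cre17.g802138 (3.22 ± 0.24) and Cre04.g800448 (4.15 ± 0.29 in mt+ and 2.40 ± 0.24 in mt-). Each was higher in all 4 dnmt1 libraries than in all 4 WT libraries. The same held for 337 of the 395 genes higher in both mating types. These genes were called in the same libraries, so the split is no separate support. Its share over all genes tested was not computed.

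The lower genes had clear reads in all libraries. Cre04.g220850 stood at 4.90 and 4.43 CPM in dnmt1 mt+, against 28.3 and 29.5 CPM in WT mt+. Levels in mt- were 3.81 and 4.70 CPM in dnmt1 mt-, against 17.1 and 16.7 CPM in WT mt-, and the log2 fold change was -2.32 ± 0.15 (edgeR, Benjamini-Hochberg adjusted p = 8.14e-06). It fell to about the same level in both dnmt1 groups, although its WT level was higher in mt+.

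Cre16.g677382 was at 8.73 and 10.7 CPM in dnmt1 mt+, against 55.6 and 47.3 CPM in WT mt+, and at 20.3 and 18.9 CPM in dnmt1 mt-, against 56.0 and 53.4 CPM in WT mt- (log2 fold change -1.92 ± 0.17). Cre08.g800898 was at 18.9 and 15.0 CPM in dnmt1 mt+, against 56.0 and 63.4 CPM in WT mt+, and at 36.1 and 36.2 CPM in dnmt1 mt-, against 76.6 and 81.4 CPM in WT mt- (log2 fold change -1.46 ± 0.14). For both genes the fall was larger in mt+, and the difference itself was called (-0.93 and -0.69 on the log2 scale, mt+ minus mt-). Cre01.g009101 (-2.37 ± 0.29), Cre01.g011630 (-2.30 ± 0.26) and Cre16.g686285 (-1.85 ± 0.30) were also lower in every dnmt1 library than in every WT library. Such a split was found in 305 of the 447 genes lower in both mating types, which again were called in the same libraries. It is no separate support, and its share over all genes tested was not computed. Cre17.g731591 (-1.67 ± 0.41) fell mainly in mt-, where it stood at 1.78 and 2.66 CPM in dnmt1 mt-, against 19.4 and 23.3 CPM in WT mt-. Its call was lost without either dnmt1 mt- library or without WT mt- replicate 1, with edgeR's Benjamini-Hochberg adjusted p at 0.0660, 0.0848 and 0.0535. The last 3 of the 10, CreCp.g802307, CreCp.g802308 and CreCp.g802329, are encoded in the chloroplast and are described with that genome.

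**Figure D2:**
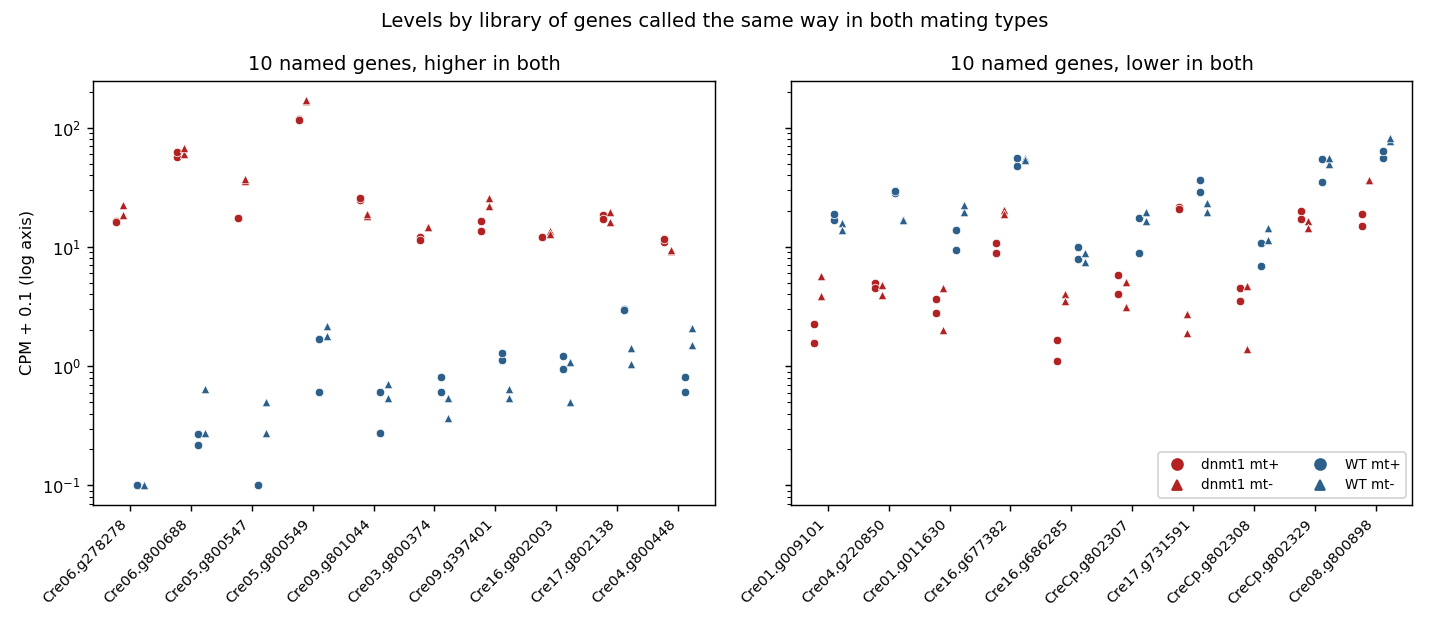
Level in CPM plus 0.1 on a log axis in each of the 8 libraries, for the 10 named genes higher in both mating types (left) and the 10 lower in both (right); circles are mt+, triangles mt-, red dnmt1 and blue WT. On the left all red points lie above 9 CPM and the blue points lie near or below 3 CPM, and on the right red lies below blue within each mating type.

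Gene IDs fall into an older series and one whose number begins with 8, which has no match in the older reference table used here. Of the 8-series 1231 genes were tested, with 49 higher in both mating types (3.98%) and 25 lower (2.03%). Of the other IDs 14032 were tested, with 346 higher (2.47%) and 422 lower (3.01%). The series differed in the size of the rise: 31 of its 49 higher genes rose at least 4-fold, against 11 of the 346 others. The 49 include the 10 genes above that were picked for few WT reads and more dnmt1 reads. A gene with hardly a read in WT passes the low-count filter only through its dnmt1 libraries. Its entry to the test thus depends on the rise, and these counts are a description only. None of its 25 lower genes fell at least 4-fold, against 7 of the 422 others. The 8-series had a lower median level, 3.75 CPM over all 8 libraries, against 14.5 CPM, and the part of level in these counts was not tested. Whether reads of the 8-series are shared with near-identical copies elsewhere in the genome was not tested.

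**Figure D3:**
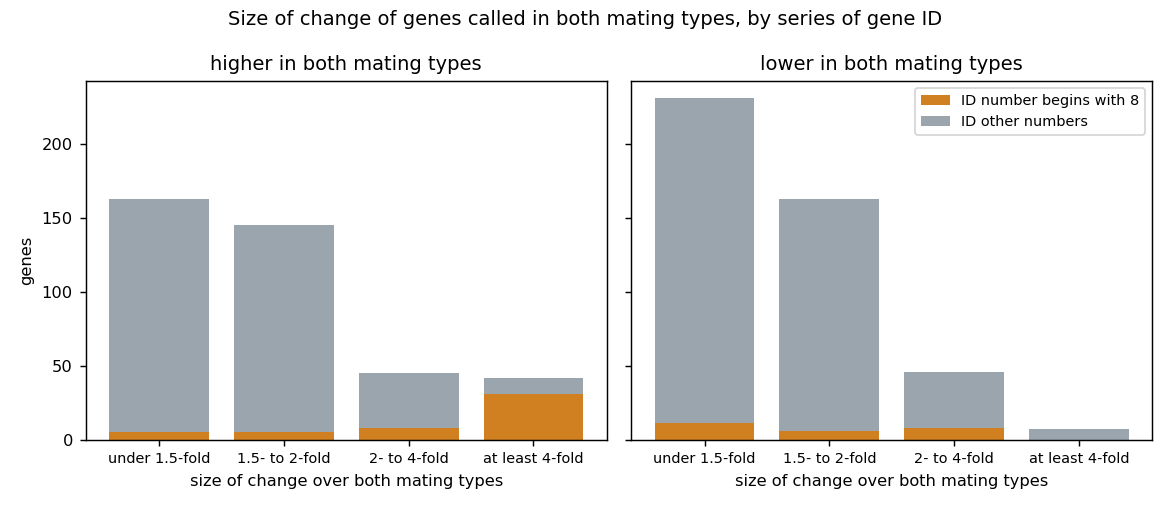
Bars give the number of genes higher (left) and lower (right) in both mating types by size of the change over both mating types, stacked by series of gene ID. In the class of at least 4-fold the left panel holds 31 genes of the 8-series and 11 others, and the right panel 7 genes, all of the other series.

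From the iron and copper list, CTR1, CTR2, FEA2 and FOX1 were higher in dnmt1 in each mating type. Of 10 tested members, 5 were higher over both mating types, against 5.83% of all genes, and none was lower. Called higher in mt+ and also in mt- were 4, against 2.59% of all genes. The list's median log2 fold change was 0.39, against 0.01 over all genes tested. The count of 5 was the same in every fit with 1 library left out. Over both mating types no member was lower by edgeR or DESeq2, or at an unadjusted p under 0.05 in edgeR.

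CTR2 (Cre10.g434350), for a copper transporter, stood at 52.4 and 47.3 CPM in dnmt1 mt+, against 23.9 and 14.8 CPM in WT mt+. For mt- the levels were 57.9 and 53.7 CPM in dnmt1 mt-, against 23.7 and 20.1 CPM in WT mt-. All dnmt1 libraries were above all WT libraries, with log2 fold changes of 1.39 ± 0.16 in mt+, 1.34 ± 0.16 in mt- and 1.36 ± 0.13 over both (edgeR, Benjamini-Hochberg adjusted p = 0.000213 over both). CTR1 (Cre13.g570600), for another copper transporter, stood at 99.0 and 94.0 CPM in dnmt1 mt+, against 59.0 and 47.7 CPM in WT mt+, and at 117 and 114 CPM in dnmt1 mt-, against 64.9 and 72.5 CPM in WT mt-. Its log2 fold change was 0.80 ± 0.09, again with no overlap between dnmt1 and WT.

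Of the tested genes of iron uptake, FEA2 and FOX1 were called in each mating type. FEA2 (Cre12.g546600), for a secreted iron-assimilation protein, stood at 69.6 and 65.1 CPM in dnmt1 mt+, against 41.3 and 30.8 CPM in WT mt+. The mt- values were 44.8 and 40.6 CPM in dnmt1 mt-, against 25.2 and 28.6 CPM in WT mt-, and the log2 fold change was 0.79 ± 0.11. FOX1 (Cre09.g393150), for the ferroxidase that works in iron uptake, rose by 0.51 ± 0.09. IRT2 (Cre12.g530350), for a transporter of the ZIP family, was called over both mating types (0.75 ± 0.16) and in mt+, but not in mt- (0.44 ± 0.17).

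The other members were not called over both mating types. CYC6 (Cre16.g651050), for cytochrome c6, which takes the place of plastocyanin when copper is scarce, was called in opposite directions, lower in mt+ (-0.95 ± 0.18) and higher in mt- (1.51 ± 0.17). CRR1 (Cre09.g390023), for the copper-sensing regulator of CYC6, was not called (-0.09 ± 0.06). Neither were the plastocyanin gene PCY1 (Cre03.g182551; -0.01 ± 0.09), the iron permease gene FTR1 (Cre03.g192050; 0.09 ± 0.08) or FEA1 (Cre12.g546550; 0.20 ± 0.25).

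Chlorophyll is made from glutamate by way of aminolevulinate, protoporphyrin and its magnesium chelate. Of 15 tested genes of this path, 5 were higher over both mating types, 1 was lower and 9 were not called. Over all genes the shares were 5.83% higher and 6.51% lower, so the 1 lower of 15 is near the background. All 6 calls were made in each mating type by itself, 5 higher and 1 lower, against 2.59% and 2.93% of all genes. The list's median log2 fold change was 0.36. In the 8 fits with 1 library left out the higher members were 5 in 7 fits and 8 without WT mt+ replicate 1, and 1 was lower in each.

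At the head of the path, HEMA1 (Cre07.g342150), for glutamyl-tRNA reductase, was the member that fell. It stood at 48.2 and 55.1 CPM in dnmt1 mt+, against 63.9 and 69.7 CPM in WT mt+. In mt- it stood at 40.4 and 38.8 CPM in dnmt1 mt-, against 68.4 and 62.6 CPM in WT mt-, and the log2 fold change was -0.55 ± 0.10. GSA1 (Cre03.g158000), for the aminotransferase of the next step, rose, standing at 30.6 and 28.3 CPM in dnmt1 mt+, against 24.1 and 19.2 CPM in WT mt+, and at 31.0 and 27.5 CPM in dnmt1 mt-, against 16.1 and 15.0 CPM in WT mt- (log2 fold change 0.68 ± 0.12).

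At the magnesium chelatase, a pair of the 3 subunit genes rose. CHLI1 (Cre06.g306300) stood at 73.4 and 72.2 CPM in dnmt1 mt+, against 55.6 and 54.0 CPM in WT mt+. In mt- the values were 52.4 and 53.9 CPM in dnmt1 mt-, against 32.6 and 30.3 CPM in WT mt-, and the log2 fold change was 0.58 ± 0.09 (edgeR, Benjamini-Hochberg adjusted p = 0.00251). CHLD1 (Cre05.g242000) had a log2 fold change of 0.79 ± 0.13, from 0.56 ± 0.14 in mt+ and 1.05 ± 0.15 in mt-. The gene of the large subunit, CHLH1 (Cre07.g325500), was not called (0.19 ± 0.11), nor was GUN4 (Cre05.g246800), for an activator of the enzyme (0.57 ± 0.36).

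Further down, CRD1 (Cre07.g346050) and POR1 (Cre01.g015350) rose. CRD1, for a subunit of the aerobic cyclase, stood at 604 and 589 CPM in dnmt1 mt+, against 503 and 417 CPM in WT mt+, and at 614 and 602 CPM in dnmt1 mt-, against 472 and 487 CPM in WT mt- (log2 fold change 0.36 ± 0.07). CTH1 (Cre12.g510050), for the related cyclase protein, was not called (0.33 ± 0.11). POR1, for the light-dependent protochlorophyllide reductase, stood at 49.0 and 47.1 CPM in dnmt1 mt+, against 31.8 and 33.1 CPM in WT mt+, and at 35.2 and 34.0 CPM in dnmt1 mt-, against 26.4 and 23.3 CPM in WT mt- (log2 fold change 0.52 ± 0.08). CAO1 (Cre01.g043350), for the oxygenase that makes chlorophyll b, was lower in mt+ (-0.50 ± 0.09) and not called in mt- (-0.11 ± 0.09) or over both (-0.30 ± 0.10).

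Of 12 tested chaperone genes, 3 were higher over both mating types, against 5.83% of all genes. The same 3 were called higher in mt+ and also in mt-, against 2.59% of all genes. Over both, 9 were not called and none was lower by edgeR or DESeq2, or at an unadjusted p under 0.05 in edgeR, with a median log2 fold change of 0.21. The count of 3 was 5 without WT mt+ replicate 1, 2 without WT mt- replicate 2 and 3 or 4 without any 1 of the others, and 5 with no low-count filter. HSP70B (Cre06.g250100), for the Hsp70 of the chloroplast, stood at 71.1 and 72.0 CPM in dnmt1 mt+, against 43.0 and 32.0 CPM in WT mt+. The mt- libraries had 119 and 119.5 CPM in dnmt1 mt-, against 89.2 and 90.3 CPM in WT mt-, and the log2 fold change was 0.67 ± 0.12. HSP90A (Cre09.g386750), for the cytosolic Hsp90, had 0.68 ± 0.14. For both genes the rise was larger in mt+, with a called difference of 0.54 and 0.78 on the log2 scale.

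CLPB3 (Cre02.g090850), for a disaggregase of the chloroplast, had nearly equal changes, 0.38 ± 0.10 in mt+ and 0.36 ± 0.10 in mt-. Its call over both was lost when dnmt1 mt+ replicate 2 (edgeR, Benjamini-Hochberg adjusted p = 0.0524) or WT mt- replicate 2 (0.0634) was left out. In mt+ by itself 8 of the 12 chaperone genes were called higher and 1 lower, and in mt- 5 higher and 2 lower. Called in opposite directions were 2 of the 12. The small heat shock protein genes HSP22E (Cre14.g617450) and HSP22F (Cre14.g617400) had opposite signs in the mating types. HSF1 (Cre07.g354500), for the heat shock transcription factor, was not called over both (-0.01 ± 0.13). BIP1 (Cre02.g080700) and BIP2 (Cre02.g080600), for the Hsp70 of the endoplasmic reticulum, were higher in mt- alone (1.51 ± 0.12 and 2.44 ± 0.15) and not called over both.

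**Figure D4:**
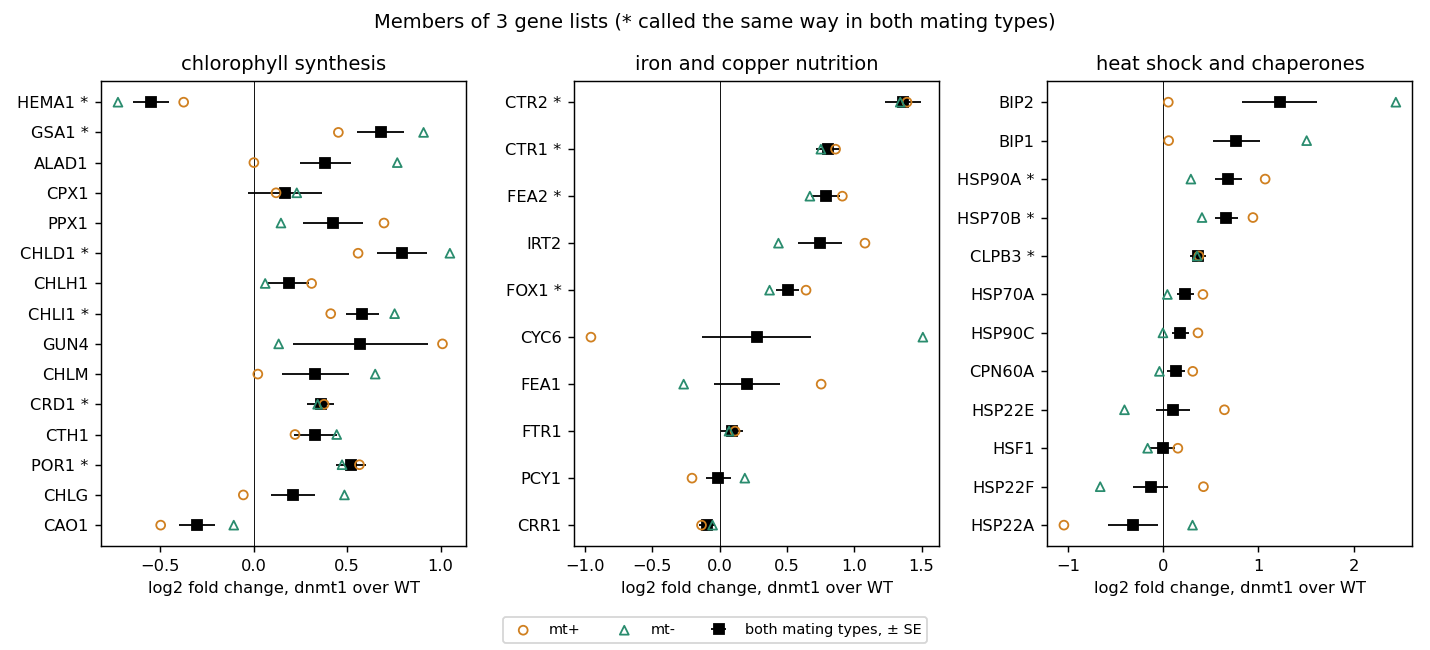
Log2 fold changes (dnmt1 over WT) of the tested members of 3 gene lists: black squares give both mating types with bars of ± SE, open circles mt+ and open triangles mt-. Stars mark members called in the same direction in each mating type, 6 for chlorophyll synthesis, 4 for iron and copper nutrition and 3 for chaperones. Among the members whose circle and triangle lie on opposite sides of 0 are CYC6, HSP22E, HSP22F and HSP22A.

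Genes of hydrogen production and fermentation, which Chlamydomonas uses without oxygen, rose over both mating types in 5 of 8 cases, against 5.83% of all genes, with a median log2 fold change of 0.30. Over both mating types none was lower by edgeR or DESeq2, or at an unadjusted p under 0.05 in edgeR. PAT2 (Cre09.g396650), for a phosphate acetyltransferase, was called in opposite directions, lower in mt+ (-0.35 ± 0.09) and higher in mt- (0.39 ± 0.09). HYDEF (Cre06.g296750), for a protein that assembles the hydrogenase, stood at 392 and 371 CPM in dnmt1 mt+, against 278 and 219 CPM in WT mt+. Levels in mt- were 367 and 355 CPM in dnmt1 mt-, against 224 and 219 CPM in WT mt-, and the log2 fold change was 0.66 ± 0.08 (edgeR, Benjamini-Hochberg adjusted p = 0.000683). It was the 1 member of 8 called higher in mt+ and also in mt-, against 2.59% of all genes.

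The hydrogenase genes HYDA1 (Cre03.g199800; 0.23 ± 0.06) and HYDA2 (Cre09.g396600; 0.43 ± 0.12), PFL1 (Cre01.g044800; 0.41 ± 0.12), for pyruvate formate lyase, and ADH1 (Cre17.g746997; 0.33 ± 0.09), for an alcohol dehydrogenase, were called in mt- but not in mt+. The count of 5 was 3 with DESeq2 size factors in edgeR. It was 1 without any 1 of the 4 mt- libraries, 2 without dnmt1 mt+ replicate 1 and also without WT mt+ replicate 2, 4 without dnmt1 mt+ replicate 2, and 6 without WT mt+ replicate 1.

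Among photosynthesis genes the share called over both mating types was near the background. Of 23 antenna genes 1 was higher and 2 were lower over both, and of 17 photosystem and Rubisco genes 1 was higher and none lower by edgeR or DESeq2, against 5.83% higher and 6.51% lower of all genes. At an unadjusted p under 0.05 in edgeR 1 of those 17 was lower. Called lower in mt+ and also in mt- were 2 of the 23 antenna genes, or 8.70%, against 2.93% of all genes. They were LHCBM4 (Cre06.g283950) and LHCBM8 (Cre06.g284250), for major light-harvesting proteins of photosystem II. LHCBM4 stood at 138 and 122 CPM in dnmt1 mt+, against 210.4 and 159.8 CPM in WT mt+, and at 113 and 113 CPM in dnmt1 mt-, against 176 and 189.9 CPM in WT mt- (log2 fold change -0.61 ± 0.10). LHCBM8 had a log2 fold change of -0.73 ± 0.12. Both genes are similar in sequence, and reads shared between them were not resolved here. LHCA1, an antenna protein of photosystem I, was called higher over both (0.24 ± 0.06), a call lost without each library in turn except WT mt+ replicate 1 and WT mt- replicate 2, with edgeR's Benjamini-Hochberg adjusted p at 0.0605 to 0.114.

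Among the photosystem and Rubisco genes, PSBX (Cre02.g082750), for a small subunit of photosystem II, was the 1 called over both. It was at 3444 and 3642 CPM in dnmt1 mt+, against 2731 and 2860.1 CPM in WT mt+, and at 3151 and 3258 CPM in dnmt1 mt-, against 2184 and 2619 CPM in WT mt- (log2 fold change 0.38 ± 0.07). Of 10 Calvin cycle genes, RPI1 (Cre03.g187450), for ribose-5-phosphate isomerase, was lower in both mating types (-0.35 ± 0.07). SEBP1 (Cre03.g185550), for sedoheptulose bisphosphatase, was lower over both and in mt+ alone (-0.35 ± 0.10). Over both, 2 of the 10 were thus lower, against 6.51% of all genes, and in each mating type 1 was, against 2.93%. Calls this few say little of the list as a whole. The call of SEBP1 was lost without each library in turn (edgeR, Benjamini-Hochberg adjusted p = 0.0535 to 0.131) except WT mt+ replicate 1. Of 19 genes of the response to low CO2, BST3 (Cre16.g663450), for a bestrophin-like channel of the thylakoid, was higher in both mating types (0.56 ± 0.10). CIA5 (Cre02.g096300), for the master regulator of that response (-0.34 ± 0.08), and the chloroplast carrier gene CCP2 (Cre04.g222750, -0.58 ± 0.16) were lower over both. The 19 genes held 1 higher over both, or 5.26%, and 2 lower, or 10.5%, against 5.83% and 6.51% of all genes. In each mating type 1 of them was higher, against 2.59% of all genes. CIA5 was called in mt+ and not in mt-, and CCP2 in mt- and not in mt+. CIA5 lost its call without either dnmt1 mt+ library, dnmt1 mt- replicate 1 or either WT mt- library (edgeR, Benjamini-Hochberg adjusted p = 0.0602 to 0.0785). CCP2 lost it without each library in turn except dnmt1 mt+ replicate 2 and WT mt+ replicate 2, with edgeR's Benjamini-Hochberg adjusted p at 0.0513 to 0.125.

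Of 7 genes of acetate use, ACS2 (Cre01.g055408), for an acetyl-CoA synthetase, was lower in both mating types. It stood at 349 and 361 CPM in dnmt1 mt+, against 591 and 554 CPM in WT mt+. For mt- the levels were 399.6 and 417 CPM in dnmt1 mt-, against 611 and 610.3 CPM in WT mt-, and the log2 fold change was -0.63 ± 0.06 (edgeR, Benjamini-Hochberg adjusted p = 0.000214). The isocitrate lyase gene ICL1 (Cre06.g282800) of the glyoxylate cycle was not called (0.07 ± 0.07). Lower over both was 1 of 7 acetate genes and 1 of 5 starch genes, against 6.51% of all genes. Lower in each mating type was 1 acetate gene and 0 starch genes, against 2.93% of all genes. Lists this small say little by their share. Of 5 starch genes STA6 (Cre03.g188250), for the small subunit of ADP-glucose pyrophosphorylase, was lower over both (-0.37 ± 0.09), with a call in mt+ alone and a called difference of -0.40. Its call over both was lost without either dnmt1 mt+ library or without WT mt+ replicate 2, with edgeR's Benjamini-Hochberg adjusted p at 0.0697, 0.0630 and 0.0509.

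Of 9 genes of tubulin and flagellar transport, IFT139 (Cre06.g268800), for a subunit of the retrograde transport complex, was lower in both mating types (-0.38 ± 0.08). That 1 of 9 is set beside 6.51% of all genes lower over both and 2.93% lower in each mating type. None of the 7 genes of nitrogen assimilation and none of the 7 cell cycle genes was called over both mating types by edgeR. At an unadjusted p under 0.05 in edgeR 1 nitrogen gene was higher and 3 cell cycle genes were lower. By DESeq2 1 nitrogen gene was called higher and 2 cell cycle genes were called lower. GSF1 (Cre12.g514050), a nitrogen gene, had 0.38 ± 0.12, and DP1 (Cre07.g323000), for a partner of the cell cycle factor E2F, had -0.37 ± 0.12.

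In the mating-type region, where 70 of 84 IDs were tested, 2 genes were higher and 3 lower over both mating types, or 2.86% and 4.29%. That is set beside 5.83% and 6.51% of all genes. Cre06.g251900 was higher in each mating type (0.73 ± 0.12) and Cre06.g254850 lower in each (-0.44 ± 0.10). Cre06.g255350 (0.49 ± 0.13) and Cre06.g251800 (-0.47 ± 0.10) were called over both and in mt- alone. The call of Cre06.g254850 was lost when WT mt- replicate 1 was left out (edgeR, Benjamini-Hochberg adjusted p = 0.0535), and that of Cre06.g251800 without that library, dnmt1 mt+ replicate 1 or either dnmt1 mt- library (edgeR, Benjamini-Hochberg adjusted p = 0.0561 to 0.0652). Cre06.g255350 lost its call without each library in turn except those of WT mt+ (edgeR, Benjamini-Hochberg adjusted p = 0.0545 to 0.0826).

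The chloroplast and the mitochondrion have small genomes of their own. Of 67 tested chloroplast genes 9 were lower over both mating types by edgeR, or 13.4%, against 6.51% of all genes, and 14 by DESeq2. None was higher by either, with a median log2 fold change of -0.21. At an unadjusted p under 0.05 in edgeR 19 were lower and 1 was higher. Against 2.93% of all genes, 4 chloroplast genes, or 5.97%, were called lower in mt+ and also in mt-. They were CreCp.g802307 (-1.78 ± 0.26), CreCp.g802308 (-1.62 ± 0.33), CreCp.g802329 (-1.52 ± 0.16) and CreCp.g802332 (-1.37 ± 0.24). CreCp.g802329 stood at 20.0 and 16.9 CPM in dnmt1 mt+, against 54.5 and 34.9 CPM in WT mt+, and at 16.5 and 14.3 CPM in dnmt1 mt-, against 49.5 and 55.4 CPM in WT mt-. These 4 genes went one way in both mating types, but the medians of the 67 genes did not, with 0.14 in mt+ and -0.74 in mt-.

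The summed chloroplast genes held 0.0559% and 0.0436% of the counts in dnmt1 mt+, against 0.0660% and 0.0407% in WT mt+. They held 0.0395% and 0.0298% in dnmt1 mt-, against 0.0563% and 0.0659% in WT mt-. The ranges overlap in mt+ and do not overlap in mt-. All chloroplast genes together thus held at most 0.0660% of the counts of a library. How much chloroplast RNA the library preparation kept was not tested. The part of this share in the calls of single chloroplast genes was not tested either. Less chloroplast RNA per cell, less of each transcript and a smaller part kept in the library cannot be told apart. Over both mating types none of the 8 mitochondrial genes was called by edgeR, 1 was called higher by DESeq2, and 3 were higher at an unadjusted p under 0.05 in edgeR. In mt- by itself edgeR called 2 of the 8 higher, beside 1820 of the 15263 genes tested.

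Calls shared by both mating types were spread over the genome, as far as IDs give position. By chromosome the genes higher in both made up between 1.82% (chromosome 8) and 3.48% (chromosome 10) of those tested, and the genes lower in both between 2.12% (chromosome 1) and 5.37% (chromosome 4). On chromosome 4 these were 24 of 447 genes. Runs of neighbouring IDs were short. The higher genes formed 15 runs that held 31 genes, of which 1 run was of 3 genes, and the lower genes formed 23 runs of 2 genes each.

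Moving alike did not mean moving equally. A difference between the mating types was called for 2109 genes, 13.8% of those tested. It was called for 236 of the 1883 genes called over both mating types and for 79 of the 842 called alike in each. Of the 1883 genes, 975 were called in 1 mating type by itself, 396 in mt+ and 579 in mt-, and 66 in neither. The other 1647 of the 1883 genes, 768 higher and 879 lower, were not called for a difference, which does not show that their changes were equal.

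Among genes higher in both with at least 5 CPM and a called difference, these had the widest gaps. Cre03.g194600 stood at 23.4 and 26.4 CPM in dnmt1 mt+, against 14.2 and 15.4 CPM in WT mt+. The mt- values were 111 and 110.4 CPM in dnmt1 mt-, against 16.1 and 16.7 CPM in WT mt-, and its log2 fold change in mt+ minus that in mt- was -2.01 ± 0.15 (edgeR, Benjamini-Hochberg adjusted p = 4.35e-07). Cre01.g043817 stood at 42.2 and 39.8 CPM in dnmt1 mt+, against 25.7 and 26.6 CPM in WT mt+, and at 74.1 and 66.5 CPM in dnmt1 mt-, against 9.45 and 9.10 CPM in WT mt-, a difference of -2.27 ± 0.15. Both were higher in every dnmt1 library than in every WT library. Cre09.g397401 also rose more in mt- (-1.87 ± 0.42), and Cre04.g800448 rose more in mt+ (1.75 ± 0.41). Among genes called over both and in 1 mating type by itself, Cre03.g195950 (1.60 ± 0.31 over both) was called in mt- and not in mt+, and Cre02.g095116 (0.99 ± 0.28 over both) in mt+ and not in mt-. The call of Cre02.g095116 over both was lost without each library in turn except those of dnmt1 mt- (edgeR, Benjamini-Hochberg adjusted p = 0.0520 to 0.111).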

How the data were processed

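RNA of vegetative cells was sequenced in 8 libraries, 2 per group. The authors deposited a table of raw counts per gene, the starting point here. A second deposited table holds normalized signal: the same counts over a factor for each library (0.749 to 1.42), which was checked and not used further. The submitters' processing notes name DESeq2, featureCounts, Picard, STAR 2.7.6 and Trim Galore 2.6, without roles or order. The IDs end in the name of the CC-4532 annotation, which is not printed, and 15386 of them matched the older reference table. No file used here pairs IDs with symbols. Symbols come from a list of loci written by hand, and each is printed with its ID.

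The low-count filter was filterByExpr of edgeR over the 4 groups, and scaling was by TMM. The main fit (edgeR 4.0.16, glmQLFit and glmQLFTest, 2-sided) had terms for mating type and genotype and 5 residual degrees of freedom. A second fit with 1 mean per group and 4 residual degrees of freedom gave the contrast in mt+, in mt- and their difference. A difference between mating types counts as spread in the main fit and not in the second. The Benjamini-Hochberg adjustment ran over all 15263 tested genes, with a threshold of 0.05. The SE was taken from the log2 fold change and the F statistic (fold change over the root of F), so for genes with few reads it can be smaller than counting error. Reads without molecular identifiers are not independent molecules. Between 25.5% and 30.8% of low counts per library were odd numbers, so the fragments behind a count may be fewer than the count. Nothing in the labels says that the biological replicates came from separate clones, so p-values measure the spread between these libraries.

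The comparison, the gene lists and the rules for named genes were chosen with earlier results of these data known. Named were the 10 genes with the highest and the 10 with the lowest fitted change (at least 5 CPM, called alike in both mating types, no overlap), genes near 0 reads in WT, members of each list called alike or with the smallest p, the DMT1 locus, and genes with the widest difference. PFL1, IRT2, CYC6, CHLH1, GUN4, CTH1, CAO1, CRR1, PCY1, FTR1, FEA1, HSF1, HSP22E, HSP22F, HSP22A, PAT2 and BIP2 were named after their values were seen. Alternatives were DESeq2 1.42.0, its size factors in edgeR, library size, other filters, a 2-fold minimum, halved counts, the replicate number as a block, each mating type alone, the mean of the mating types, and each library left out. The scripts were tested on simulated data. R 4.3.3, Python 3.11.15 and matplotlib 3.10.9 were used. Promoter, protein and genome sequences were not used here.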

Additional observations from a re-analysis of the deposited data

Results flagged for a closer look

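The genes below are set out because the test of the difference between the mating types was called, by edgeR's quasi-likelihood test with Benjamini-Hochberg adjustment, in the DMT1 locus and in genes named above that were also called over both mating types. Each value is the log2 fold change (dnmt1 over WT) in mt+ minus that in mt-.

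Among genes higher in both mating types, the difference was -2.27 for Cre01.g043817, -2.01 for Cre03.g194600, -1.87 for Cre09.g397401 and -1.28 for Cre17.g802138, which rose more in mt-. It was 1.75 for Cre04.g800448, 0.78 for HSP90A (Cre09.g386750) and 0.54 for HSP70B (Cre06.g250100), which rose more in mt+. Among genes lower in both it was -1.63 for Cre16.g686285, -1.62 for Cre01.g009101, -0.93 for Cre16.g677382 and -0.69 for Cre08.g800898, which fell more in mt+, and 2.66 for Cre17.g731591, which fell more in mt-.

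Among genes called over both mating types and in 1 of them by itself, the difference was 1.57 for Cre02.g095116, -1.80 for Cre03.g195950, -0.64 for the hydrogenase gene HYDA2 (Cre09.g396600) and -0.40 for the starch gene STA6 (Cre03.g188250). For the DMT1 locus (Cre10.g461750) it was -2.66, from a fall in mt+ and a rise in mt-.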

How the results depend on the processing

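The fit over 8 libraries called 890 genes higher and 993 lower. DESeq2 called 951 and 1220, its size factors in edgeR 810 and 1070, library size scaling 708 and 1294, no filter 923 and 1005, a mean of at least 10 CPM 834 and 899, and halved counts 918 and 1012. Counts that moved by over 1.5 times were 1976 and 1957 with the mean of both mating types, where a difference between them is by construction not spread, 140 and 74 with a 2-fold minimum, and 2833 and 2826 in mt- alone. In mt+ alone they were 814 and 705. In this section mt+ alone and mt- alone are fits to the libraries of that mating type only. They differ from the contrasts of the fit with 1 mean per group. Leaving out 1 library gave 464 to 1296 higher and 545 to 1327 lower. The highest counts were without WT mt+ replicate 1, and those without any 1 of the other 7 were 709 and 773 or fewer. Genes higher and lower in both mating types, 395 and 447, became 71 and 31 with a 2-fold minimum in each, 276 and 392 with DESeq2, and 301 and 369 with each mating type fitted alone. Leaving out 1 library gave 210 to 796 and 199 to 869. Counting genes called over both and not called for a difference, a definition added after the data were seen, gave 768 and 879. The 13 genes near 0 in WT became 6 at 0 counts per WT library, 28 at no more than 10, and 6 at no fewer than 30 counts per dnmt1 library, and leaving out 1 library gave 13 to 16.

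The DMT1 locus, at 0.46 over both, was called with the mean of both mating types (0.38) and in mt- alone (1.70), and had the other sign in mt+ alone (-0.96). With 1 library left out it was 0.03 to 0.86 and not called. Of genes named in the text or by its rules, those that changed sign in mt+ alone were CYC6 (-0.97), PAT2 (-0.36), HSP22F (0.41), HSF1 (0.14), ICL1 (-0.044) and the mitochondrial gene CreMt.g802339 (-0.068). In mt- alone they were HSP22E (-0.41), FEA1 (-0.27), PCY1 (0.18), STA1 (Cre13.g567950; 0.075), STA3 (Cre06.g282000; 0.041), NIT2 (Cre03.g177700; 0.027) and MAT3 (Cre06.g255450; 0.0051). PAT2 was -0.028 with library size and PCY1 0.0034 with a mean of at least 10 CPM. Leaving out 1 library, the signs varied for CYC6 (-0.12 to 0.65), PAT2 (-0.069 to 0.15), HSP22E (-0.064 to 0.24), HSP22F (-0.27 to 0.021), FEA1 (-0.025 to 0.36), HSF1 (-0.061 to 0.073) and PCY1 (-0.10 to 0.058). None of these 13 was called over both. The causes of these moves were not tested.

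Of 74 called genes that the text or its rules name, 74 kept their call with DESeq2, 72 with its size factors, 72 with library size, 74 without a filter, and 61 to 72 with 1 library left out. In mt+ alone 55 of 73 kept it and in mt- alone 72 of 73. Little pairing by replicate number was seen: correlations of deviations between groups ran from -0.05 to 0.15, which does not exclude a weak one. The replicate block called 744 higher and 814 lower over both mating types, and 441 and 497 alike in each, and kept 70 of the 74 calls.

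With 2 libraries per group, 10 counts or fewer in a library leave a fold change uncertain, and a gene with no call is not shown to be equal.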
